A study of Mus musculus with 6 samples.

Results

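The clustered protocadherins are adhesion proteins of the cadherin superfamily, encoded in 3 neighbouring gene clusters, alpha, beta and gamma. Genes were included when their name in the deposited table began with Pcdha, Pcdhb or Pcdhg, which gave 58 of 34745 genes. Of these, 14 belonged to the alpha cluster, 22 to the beta cluster and 22 to the gamma cluster. The gamma genes were 12 of type A, 7 of type B and 3 of type C. All 58 lie on the plus strand of mouse chromosome 18 between bases 36930184 and 37841873 of GRCm38, and the position of each in the table equalled that in GENCODE M21.

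RNA was sequenced from MLE-12 cells, a mouse lung epithelial line that came from a lung tumour driven by a viral T antigen under a surfactant protein C promoter. The NR4A1 group was 3 libraries from cells transfected with a plasmid carrying the open reading frame of NR4A1, an orphan nuclear receptor, in the pCMV-SPORT6 vector. The vector group was 3 libraries from cells transfected with pCMV-SPORT6 alone. Both groups received plasmid with Lipofectamine, expression was transient from a viral promoter, and the share of cells that took up plasmid and the time to harvest were not given for these libraries in the sources used here. Nothing in the labels states that replicates were separate cultures, so that p-values measure only the spread between these libraries, which may be technical.

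In an alpha or gamma gene, a promoter in front of each variable exon starts the transcript, and the variable exon is spliced to constant exons that all isoforms of the cluster share. A beta gene consists mainly of a single large exon and lacks such a shared tail. The proteins bind their own kind on the facing cell and are best known in neurons, where each cell uses a different mixture and so tells its own branches from those of others. CTCF and cohesin bring distant enhancers to the chosen promoters, and DNA methylation keeps other promoters silent.

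This gene structure limits what a count per isoform can mean. In GENCODE M21, 2860 bases were exonic in every one of the 14 alpha genes, and 2116 bases in every one of the 22 gamma genes. As a share of each gene's own exonic bases, the part that other clustered protocadherins also contained was 38.0% to 54.9% for alpha genes, 27.8% to 66.8% for gamma genes and 0% to 9.67% for beta genes. The only exonic bases shared within the beta cluster were the 455 in which Pcdhb21 and Pcdhb22 overlap. Genes at separate positions also resemble each other. Stretches of 50 bases of transcript that occur in another member made up 43.8% to 63.9% of an alpha gene, 26.9% to 65.3% of a gamma gene and up to 11.99% of a beta gene (Pcdhb12), and 21 of 22 beta genes held some. How reads in shared bases were assigned was not given in the sources used here, so the counts of single isoforms in all 3 clusters are uncertain to that extent. A further 19 genes of the table overlapped a clustered protocadherin, 12 of them on the minus strand, and none had more than 5 counts in a library.

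A name was carried by more than 1 gene in 2 cases. Pcdha11 stood for ENSMUSG00000007440 and ENSMUSG00000102206, which share that symbol in GENCODE M21 too. Pcdhga8 stood for ENSMUSG00000103897 and for ENSMUSG00000023036, which GENCODE M21 names Pcdhgc4. It is called Pcdhgc4 here.

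The libraries held 15019038 to 17574340 counts on genes, and 3 counts, taken as the smallest amount a library can show, corresponded to 0.170 to 0.203 normalized CPM, the count scaled to the size of its library with TMM factors. Such limits cover counting error only. Nr4a1 had 50660, 60093 and 68555 counts in NR4A1 replicates 1, 2 and 3 and 428, 510 and 463 in vector replicates 1, 2 and 3, as the labels say. NR4A1 replicate 2 stood apart from the other libraries on the first principal component (46.0% of the variance), at 57.4 against -20.8 to 2.24. It also had the highest count of 8 of 8 smooth muscle markers, 9 of 10 endothelial markers and 7 of 10 fibroblast markers. Results that rest on this library are therefore given with and without it. Of 12 lung epithelial markers, Sftpc (1013 to 1389 counts), Abca3, Nkx2-1, Cdh1, Krt8 and Sftpb (189 to 336 counts) were well counted in all 6 libraries, whereas the defining type II cell markers Sftpa1 and Slc34a2 were at 0 in all of them and Sftpd, Lamp3 and Epcam had few counts. Krt18 had 164 counts in NR4A1 replicate 2 and 2 to 21 in the other libraries.

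Clustered protocadherins were transcribed mainly from the gamma cluster. Of all counts on the 58 genes, 85.7% fell on gamma, 14.1% on beta and 0.164% on alpha genes. Together they made up 0.00723% to 0.0209% of the counts of a library. In this bulk RNA, fewer cells that transcribe an isoform and less RNA per cell cannot be told apart. Of the 58 genes, 10 had no count in any library, 22 had more than 3 counts in all 6 libraries, and 21 passed the filter on low counts and were tested. A gene could pass that filter through the group in which it was high, so counts over the 21 describe the tested genes and not the clusters.

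The alpha cluster was close to silent. The 14 genes had 23 counts in all, 1, 12 and 1 in NR4A1 replicates 1, 2 and 3 and 5, 3 and 1 in the vector replicates. Of these genes, 7 were at 0 in every library, no alpha gene had more than 5 counts in any library, and 0 of 14 were tested. The most counted were Pcdha11 (ENSMUSG00000007440), with 1 count in NR4A1 replicate 1 and 5 in vector replicate 1, and Pcdhac2, a C-type alpha isoform, with 5 in NR4A1 replicate 2 and 1 in vector replicate 3. Pcdha1 had 4 counts, all in NR4A1 replicate 2. With 4 counts or fewer for Pcdha4, Pcdha8, Pcdha9 and Pcdha12 as well, no comparison of alpha isoforms between the groups was possible at this depth.

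Within the beta cluster the counts lay almost wholly at its distal end. The 7 genes from Pcdhb16 to Pcdhb22, between bases 37477814 and 37524479, held 93.6% of the beta counts. Of the other 15 genes, Pcdhb14 had 6 to 15 counts in a library and the remaining 14 had at most 4, with Pcdhb2, Pcdhb3 and Pcdhb6 at 0 throughout. The plot of beta levels shows this step along the cluster.

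**Figure D1:**
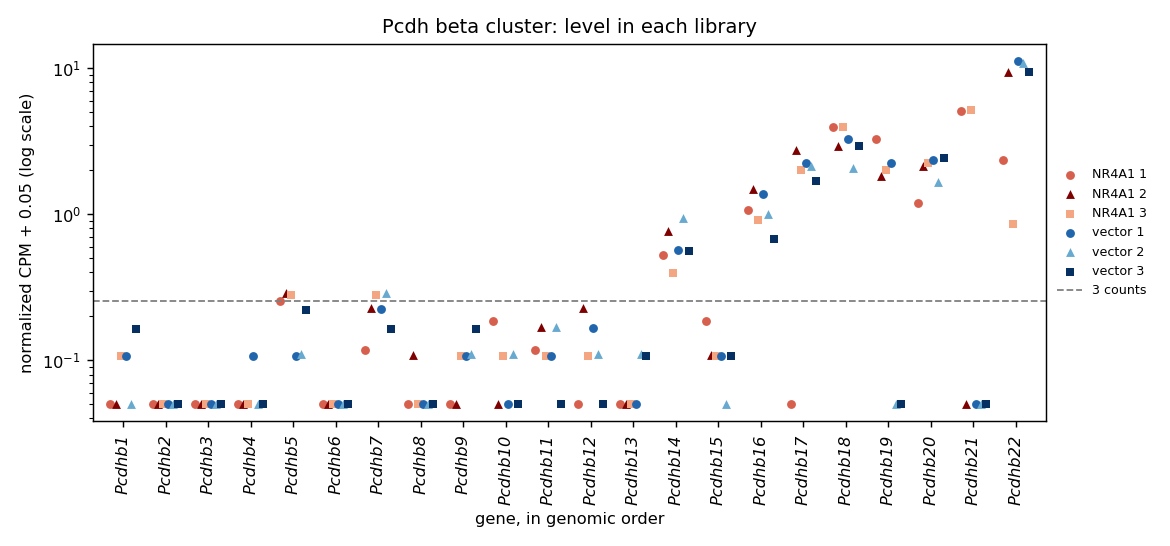
Level of the 22 Pcdh beta genes, in genomic order, in each of the 6 libraries (points), as normalized CPM with 0.05 added, on a logarithmic axis. The dashed line marks 3 counts. Points above it are almost all at Pcdhb14 and from Pcdhb16 to Pcdhb22, and Pcdhb21 lies far above it in NR4A1 replicates 1 and 3 only.

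In contrast, every gamma gene was counted, and 17 of 22 had more than 3 counts in all 6 libraries. A few isoforms carried most of the signal. Per kilobase of exon, the highest level in the vector group was that of Pcdhgc3, at 8.12 normalized CPM per kb on average (19.6, 1.52 and 3.22 in the 3 replicates), followed by Pcdhgb2 at 3.49 ± 0.207 (SD, n = 3) and Pcdhga5 at 2.38 ± 0.911. Pcdhb22 came next at 1.58 ± 0.149, then the C-type isoforms Pcdhgc4 at 0.970 ± 0.134 and Pcdhgc5 at 0.834 ± 0.117. Pcdhgc3 varied so much between libraries that its place in this order is not fixed, and the ranges of mean ± SD overlapped between the neighbours Pcdhgb2 and Pcdhga5, Pcdhga5 and Pcdhb22, and Pcdhgc4 and Pcdhgc5, but not between Pcdhb22 and Pcdhgc4. In the NR4A1 group the mean levels were 11.0 ± 8.53 normalized CPM per kb for Pcdhgc3, 3.19 ± 0.947 for Pcdhgb2, 3.10 ± 5.19 for Pcdhga12, 2.39 ± 0.449 for Pcdhgc4 and 2.10 ± 0.921 for Pcdhga5. The ranges of mean ± SD of neighbours in this order overlapped, and the order differed between libraries. In NR4A1 replicate 2 Pcdhga12 (9.09) and Pcdhgc4 (2.86) were above Pcdhgb2 (2.47), and in NR4A1 replicate 3 Pcdhgb2 (4.26), Pcdhga5 (2.91) and Pcdhgc4 (1.97) were above Pcdhgc3 (1.74).

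**Figure D2:**
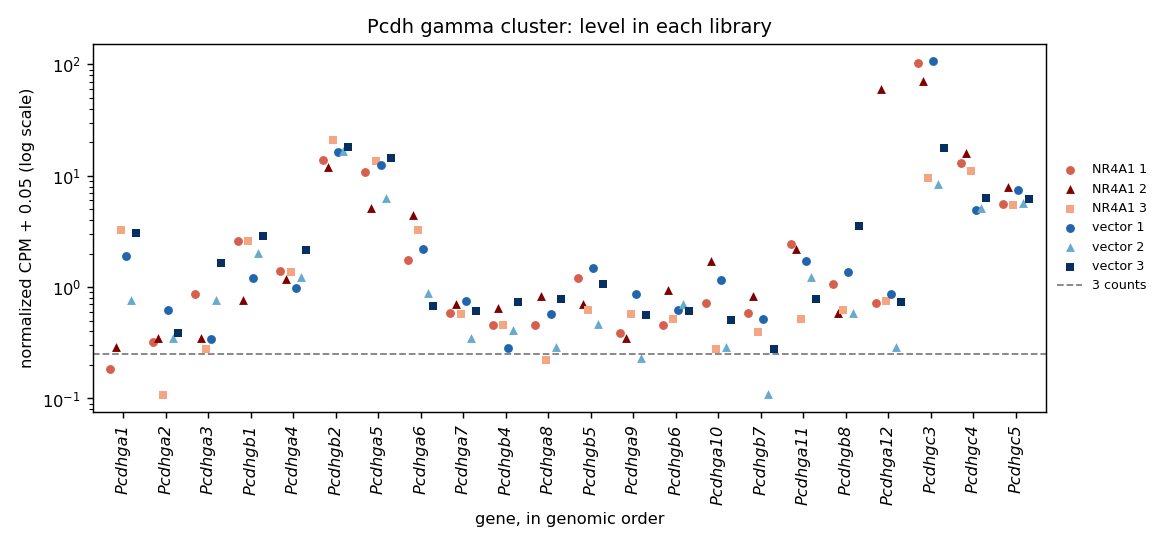
Level of the 22 Pcdh gamma genes, in genomic order, in each of the 6 libraries (points), as normalized CPM with 0.05 added, on a logarithmic axis. The dashed line marks 3 counts. Pcdhga12 is high in NR4A1 replicate 2 only, Pcdhgc3 divides the libraries into 3 high and 3 low, and for Pcdhgc4 all NR4A1 points lie above all vector points.

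The comparison of the NR4A1 and vector groups asks which transcripts differ when lung epithelial cells carry more NR4A1. No clustered protocadherin passed the threshold, an adjusted p under 0.05 with a change of at least 2-fold in edgeR's quasi-likelihood test with Benjamini-Hochberg adjustment over all genes. That was 0 of 21 members, beside 22 of all 12941 genes tested (0.17%). At an unadjusted p under 0.05 there were 3 of 21 members, Pcdhgc4, Pcdhga12 and Pcdhga6, all higher with NR4A1, beside 6.46% of all genes, of which those higher with NR4A1 were 4.02%. DESeq2 called 1 of 47 members tested, Pcdhgc4, beside 0.337% of 19306 genes. Limma on FPKM called 0 of only 6 members tested, beside 0.0629% of 11137 genes. In the edgeR fit the log2 fold change was above 0 for 9 of the 21 members and below 0 for 12. Its median was -0.04, beside 0.01 over all genes tested. For 15 of the 21 members it was within 1 of 0.

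Pcdhgc4, a C-type gamma isoform that certain neurons need to survive and that reaches the cell surface poorly without other isoforms, was the member whose difference was largest against its error. Its counts were 193, 269 and 191 in NR4A1 replicates 1, 2 and 3 and 85, 85 and 111 in vector replicates 1, 2 and 3. Every NR4A1 library was above every vector library, at 13.4 ± 2.51 against 5.43 ± 0.750 normalized CPM (SD, n = 3). It was the only member among 21 whose groups did not overlap, a pattern seen with NR4A1 higher in 6.69% of all genes tested and with NR4A1 lower in 6.22%. The log2 fold change was 1.30 (SE 0.190, n = 3), with an adjusted p of 0.0696 in edgeR's quasi-likelihood test, which did not pass the threshold. Over 14 alternative settings, the adjusted p of Pcdhgc4 ranged from 4.64e-05 with DESeq2 to 0.310. Without NR4A1 replicate 2 the log2 fold change was 1.15 (SE 0.171) and the adjusted p 0.0656 by the same edgeR test. Other clustered protocadherins contain 37.9% of the exonic bases of Pcdhgc4.

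The other C-type gamma isoforms did not share this pattern. Pcdhgc5 had 82, 131 and 93 counts in the NR4A1 replicates and 127, 94 and 108 in the vector replicates, so the groups overlapped, and its log2 fold change was -0.03 (SE 0.212). Pcdhgc3, an isoform that can act on Wnt signalling through Axin1, had 1508, 1179 and 166 counts in the NR4A1 replicates and 1865, 140 and 313 in the vector replicates. NR4A1 replicates 1 and 2 and vector replicate 1 were high and the other 3 libraries low, with the lowest of the high libraries 3.96-fold above the highest of the low ones. The groups therefore overlapped fully, and the log2 fold change of 0.44 (SE 1.05) had an adjusted p of 0.973 in edgeR's quasi-likelihood test.

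This division of the libraries by Pcdhgc3 did not follow the groups. It decided how much of the gamma cluster each library devoted to the isoform, 63.5%, 37.4% and 12.6% of gamma counts in NR4A1 replicates 1, 2 and 3 and 65.2%, 15.98% and 21.4% in the vector replicates. The 95% Wilson intervals, which cover counting error only, ran from 61.6% to 65.5% in NR4A1 replicate 1 and from 10.9% to 14.5% in NR4A1 replicate 3, and did not meet. Among 12538 genes with at least 30 counts in a library, 182 (1.45%) had the same 3 libraries at least 3-fold above the other 3. Without a demand on the gap, these 3 libraries were the highest for 544 of the genes (4.34%), for 2 of the 18 members among them and for 6 of the 10 fibroblast markers. Col1a2, a chain of type I collagen, was 1 of those 6, with 45, 4504 and 12 counts in the NR4A1 replicates and 284, 14 and 10 in the vector replicates. Col1a1 did not have this order, with 99, 4189 and 84 counts in the NR4A1 replicates and 303, 103 and 124 in the vector replicates. Lum, Fbln1 and Dcn did not have it either. The summed level of the fibroblast markers without Dcn, which was high in all libraries, was 43.3, 744 and 34.3 normalized CPM in the NR4A1 replicates and 84.0, 39.2 and 41.9 in the vector replicates. The part of fibroblast-like cells in the level of Pcdhgc3 was not tested.

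Pcdhga12, a type A gamma isoform, was high in a single library. It had 10, 1017 and 12 counts in NR4A1 replicates 1, 2 and 3 and 14, 4 and 12 in the vector replicates. The level in NR4A1 replicate 2 was 74.8-fold above that in the highest other library, and the other 5 libraries of both groups overlapped. The fitted log2 fold change of 5.14 had an SE of 1.86 and an adjusted p of 0.683 in edgeR's quasi-likelihood test. Without NR4A1 replicate 2 it was 0.24 (SE 0.547), with an adjusted p of 0.893 by the same test.

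Pcdhga12 was the only clustered protocadherin with at least 50 counts in a library and a level at least 10-fold above that in each other library. Such a gene was common in NR4A1 replicate 2, with 220 of 11836 genes (1.86%), while vector replicate 1 had 2 (0.0169%) and the other 4 libraries had 0. In the same library the summed level of 10 endothelial markers was 132 normalized CPM, against 14.1 to 16.6 in the other libraries, and that of 8 smooth muscle markers was 327 against 1.55 to 2.95. The fibroblast markers summed to 1623 against 946 to 1070, the neuronal markers to 92.3 against 54.7 to 115, and the lung epithelial markers to 525 against 484 to 561. By group, the lung epithelial sum was 484 to 526 in the NR4A1 libraries and 539 to 561 in the vector libraries, without overlap. Of the 12 lung epithelial markers, 7 were tested and 0 were called. The defining endothelial markers Cdh5, Tie1 and Kdr were at 0 in the 5 libraries other than NR4A1 replicate 2. Tek went the other way, with 89 counts in NR4A1 replicate 2 and 102 to 127 in the others. Egfl7 had 203 counts in NR4A1 replicate 2 against 73 to 120, and Vwf 254 against 11 to 40. The part of such cells in the count of Pcdhga12 was not tested.

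**Figure D3:**
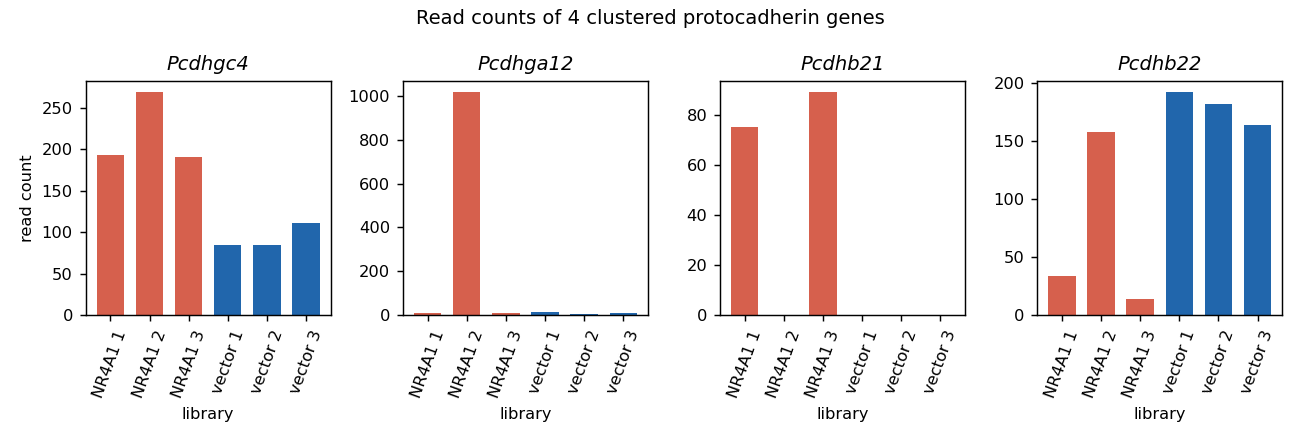
Read counts of Pcdhgc4, Pcdhga12, Pcdhb21 and Pcdhb22 in the 3 NR4A1 libraries (red bars) and the 3 vector libraries (blue bars), each bar 1 library, with its own linear axis from 0 in each panel. Pcdhgc4 is higher in each NR4A1 library, Pcdhga12 reaches 1017 counts in NR4A1 replicate 2 alone, and Pcdhb21 is counted only in the libraries in which Pcdhb22 has 34 and 14 counts.

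At the distal end of the beta cluster, the overlapping genes Pcdhb21 and Pcdhb22 differed in opposite directions in the same libraries. Pcdhb21 had 75, 0 and 89 counts in NR4A1 replicates 1, 2 and 3 and 0 in all 3 vector replicates. Pcdhb22 had 34, 158 and 14 counts in the NR4A1 replicates and 192, 182 and 164 in the vector replicates. NR4A1 replicates 1 and 3 were thus high for Pcdhb21 and low for Pcdhb22, while NR4A1 replicate 2 lay with or near the vector libraries for both genes. Against 3 counts per vector library, Pcdhb21 was at least 29.1-fold and at least 29.5-fold higher in NR4A1 replicates 1 and 3. With all 6 libraries Pcdhb21 did not pass the filter on low counts, and Pcdhb22 had a log2 fold change of -1.32 (SE 0.728) with an adjusted p of 0.834 in edgeR's quasi-likelihood test.

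Without NR4A1 replicate 2, Pcdhb22 passed the threshold, with a log2 fold change of -2.77 (SE 0.366) and an adjusted p of 0.0457 in edgeR's quasi-likelihood test. In the same 5 libraries it did not pass once replicate numbers were blocked. All genes called in this comparison were 28 of 13084 (0.214%). Pcdhb21 passed the filter on low counts here only through the 2 NR4A1 libraries in which it was counted, after the NR4A1 library at 0 had been removed, so its call in this fit is no support for a difference and its p is not given. Of the other 21 members tested, Pcdhb22 was the only one called, and 2, Pcdhb22 and Pcdhgc4, had an unadjusted p under 0.05, beside 8.19% of all genes. With 2 libraries against 3, the groups did not overlap for 4 of these 21 members. These were Pcdhb18 and Pcdhgc4 with NR4A1 higher and Pcdhb22 and Pcdhgc5 with NR4A1 lower, beside 13.8% of all genes in each direction. Pcdhb21 is left out here, since the filter fixed its separation.

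The counts of the pair were then added, since reads in the 455 shared bases could be given to either gene. Those bases made up 9.67% of the exonic bases of Pcdhb21 and 6.88% of those of Pcdhb22. The part of read assignment in the opposite counts was not tested. The sums were 109, 158 and 103 in the NR4A1 replicates and 192, 182 and 164 in the vector replicates, so that NR4A1 replicates 1 and 3 remained the lowest and all NR4A1 libraries were below all vector libraries in counts. On the normalized scale NR4A1 replicate 2 (9.41 CPM) lay just above vector replicate 3 (9.29 CPM). The log2 fold change of the sum was -0.46 (SE 0.197) with all libraries and -0.65 (SE 0.167) without NR4A1 replicate 2, with adjusted p of 0.774 and 0.366 in edgeR's quasi-likelihood test. The sum did not pass the threshold in either comparison. The sum was added after the counts had been seen.

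The other distal beta genes did not separate the groups. Pcdhb18 had 58, 48 and 68 counts in the NR4A1 replicates and 56, 34 and 51 in the vector replicates, with a log2 fold change of 0.39 (SE 0.257) and an adjusted p of 0.867 in edgeR's quasi-likelihood test. Pcdhb20 had 17, 35 and 38 counts against 40, 27 and 42, and Pcdhb16 had 15, 24 and 15 against 23, 16 and 11, so the groups overlapped for each of these genes. Pcdhb17 was at 0 in NR4A1 replicate 1 but had 45 and 34 counts in NR4A1 replicates 2 and 3 and 38, 35 and 29 in the vector replicates. Pcdhb17 ends 10 bases before Pcdhb18 begins, and Pcdhb19 ends 135 bases before Pcdhb20. Pcdhb19 had 48, 30 and 34 counts in the NR4A1 replicates and 38, 0 and 0 in the vector replicates. Its log2 fold change of 1.65 had an SE of 1.21 and an adjusted p of 0.888 by the same edgeR test. Without vector replicate 1, the single vector library in which Pcdhb19 was counted, the fitted value was 8.28, which is no bound, with an adjusted p of 0.122, and without any other library it was 1.07 to 1.81.

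Among type A and type B gamma isoforms, the most abundant ones did not separate the groups either. Pcdhgb2 had 205, 202 and 360 counts in the NR4A1 replicates and 279, 281 and 320 in the vector replicates, with a log2 fold change of -0.13 (SE 0.203). Pcdhga5 had 158, 86 and 235 counts against 217, 106 and 255, with a log2 fold change of -0.18 (SE 0.413). Replicate 2 was the lowest library of both groups for Pcdhga5, and the spread within each group was larger than the difference between them. Pcdhga6 had 25, 73 and 55 counts in the NR4A1 replicates and 37, 14 and 11 in the vector replicates, an overlap of a single library, with a log2 fold change of 1.36 (SE 0.535) and an adjusted p of 0.735 in edgeR's quasi-likelihood test.

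Pcdhgb8, annotated as a polymorphic pseudogene in GENCODE M21, had 15, 9 and 10 counts in the NR4A1 replicates and 23, 9 and 61 in the vector replicates. The fitted log2 fold change of -1.33 (SE 0.668, adjusted p 0.822 in edgeR's quasi-likelihood test) rested largely on vector replicate 3, and without that library it was -0.40. Pcdhga1 had 2, 4 and 56 counts in the NR4A1 replicates and 32, 12 and 53 in the vector replicates, so that replicate 3 of each group was the highest. The remaining tested isoforms, Pcdhga3, Pcdhga4, Pcdhga10, Pcdhga11, Pcdhgb1 and Pcdhgb5, had at most 50 counts in a library, overlapping groups and fitted log2 fold changes from -0.97 (Pcdhga3) to 0.52 (Pcdhga10). The value of Pcdhga3 was -0.19 without vector replicate 3, and that of Pcdhga10 was -0.43 without NR4A1 replicate 2. Pcdhga2, Pcdhga7, Pcdhga8, Pcdhga9, Pcdhgb4, Pcdhgb6 and Pcdhgb7 had 1 to 15 counts in a library and were not tested.

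**Figure D4:**
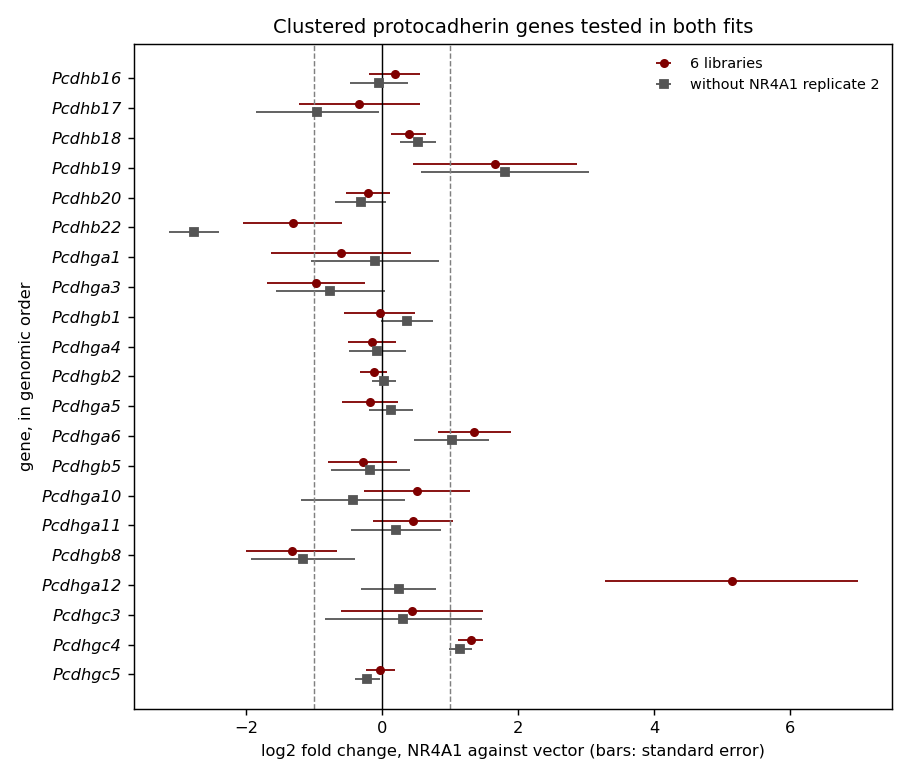
Log2 fold change of NR4A1 against vector (horizontal axis; points, with bars of 1 standard error) for the 21 clustered protocadherins tested in both comparisons, in genomic order, with all 6 libraries (red circles) and without NR4A1 replicate 2 (grey squares); dashed lines mark a 2-fold change. Leaving that library out moves Pcdhga12 from 5.14 to 0.24 and Pcdhb22 from -1.32 to -2.77, whereas Pcdhgc4 is at 1.30 with it and 1.15 without it.

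By cluster, the summed level did not differ beyond the spread between replicates, and no test was made on the sum over a cluster. The beta genes summed to 17.8, 21.8 and 18.02 normalized CPM in the NR4A1 replicates and 23.6, 19.1 and 17.96 in the vector replicates. The group means were 19.2 ± 2.26 and 20.2 ± 2.96 (SD, n = 3), a log2 ratio of -0.07, and -0.17 without NR4A1 replicate 2. The gamma genes summed to 160.4, 188 and 75.9 normalized CPM in the NR4A1 replicates and 166, 52.3 and 82.8 in the vector replicates.

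The groups overlapped for the gamma sum too, at 141 ± 58.3 against 100.2 ± 58.6 normalized CPM, a log2 ratio of 0.50, or 0.24 without NR4A1 replicate 2. Most of the spread came from Pcdhgc3 and Pcdhga12. Without these genes, the remaining 20 gamma genes summed to 57.8, 57.0 and 65.6 normalized CPM in the NR4A1 replicates and 56.8, 43.7 and 64.4 in the vector replicates, at 60.1 ± 4.76 against 55.0 ± 10.5 and a log2 ratio of 0.13. The ratio of the highest to the lowest library was 3.59 for the whole gamma sum and 1.502 for those 20 genes. The part summed without these genes was chosen after the counts had been seen. For the alpha cluster no ratio was taken, since the group sums rest on 14 and 9 counts.

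**Figure D5:**
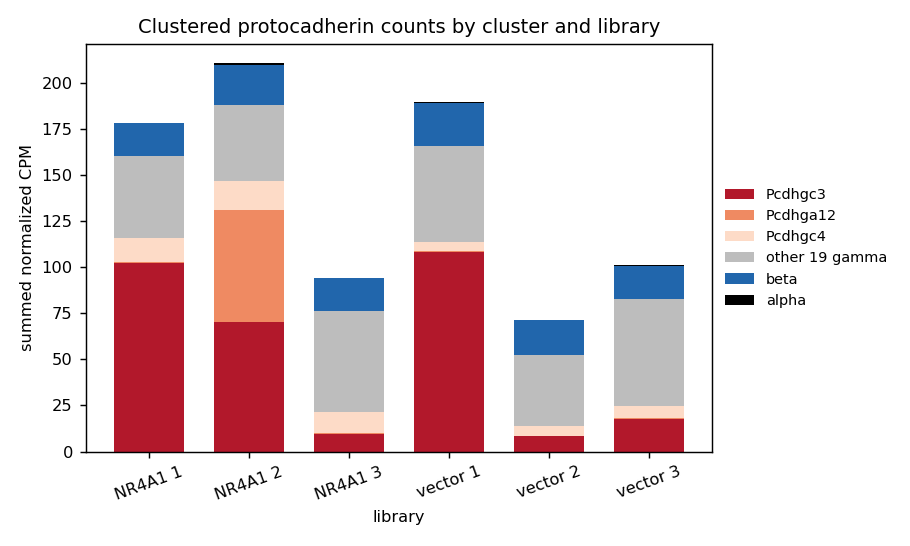
Summed normalized CPM of the clustered protocadherins in each of the 6 libraries, stacked as Pcdhgc3, Pcdhga12, Pcdhgc4, the other 19 gamma genes, all beta genes and all alpha genes. The tallest bars are NR4A1 replicates 1 and 2 and vector replicate 1, owing to Pcdhgc3 and, in NR4A1 replicate 2, Pcdhga12, while the beta segment is of like height in all 6.

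Genes around and beyond the clusters were read from the same fit. Of 12 listed protocadherins outside the clusters, 5 were tested and 0 were called. Pcdh19, by far the most counted of them, had 2367, 1879 and 2318 counts in the NR4A1 replicates and 1859, 1532 and 2959 in the vector replicates, with overlapping groups. Pcdh9 had 134 counts in NR4A1 replicate 2 and at most 7 in any other library, and Pcdh1 had 90 there and at most 12 elsewhere. Of the 12 listed genes, 5 had their highest level in NR4A1 replicate 2, and the share of all genes with that pattern was not taken. Among the 5, Pcdh12 had only 4 counts and Pcdh20 only 2 in that library. The other listed genes, among them Pcdh7, Pcdh10, Pcdh18 and Pcdh19, did not have their highest level there.

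Of 21 listed regulators of the clusters, among them the loop factors Ctcf and Rad21, the methyltransferases Dnmt1, Dnmt3a and Dnmt3b and the silencers Smchd1 and Setdb1, 20 were tested and 0 were called, with log2 fold changes from -0.23 to 0.26. Ctcf had 2682, 2563 and 2781 counts in the NR4A1 replicates and 2940, 2728 and 3038 in the vector replicates. The listed partners and proteases included Adam10 and the gamma-secretase subunits that cut the proteins, the focal adhesion kinases and subunits of the WAVE complex. All 16 were tested and 0 were called, with log2 fold changes from -0.09 to 0.66 (Ret). For Ret, Nckap1 and Ptk2 every NR4A1 library was above every vector library. Of 13 listed flanking genes of chromosome 18, 12 were tested and 0 were called, with log2 fold changes from -0.46 (Rell2) to 0.75 (Slc25a2). Every NR4A1 library was above every vector library for Slc25a2 and below every vector library for Rell2. Over all genes tested, 6.69% had the former pattern and 6.22% the latter. Taf7, a subunit of the general transcription factor TFIID that lies between the beta and gamma clusters, had 264, 248 and 265 counts against 322, 268 and 218. Smallest adjusted p-values in edgeR's quasi-likelihood test were 0.890 for the protocadherins outside the clusters, 0.834 for the regulators, 0.735 for the partners and 0.784 for the flanking genes.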

How the data were processed

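The authors deposited, for 6 libraries, a read count per gene and an FPKM per gene. The labels describe mRNA isolation and the study's methods a stranded total RNA kit. The submitters' processing notes name HISAT2 2.0.4 and GRCm38.p4, while the counting program, its strand setting and the annotation were not given in the sources used here. The gene length implied by the deposited FPKM was within 2 bases of the summed distinct exons of GENCODE M21 for 47 of 48 members with a count.

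The counts were scaled by TMM, genes with few counts were dropped by filterByExpr at its defaults, and the groups were compared over all remaining genes by the quasi-likelihood test of edgeR 4.0.16 (R 4.3.3), adjusted after Benjamini and Hochberg and with no covariate. A gene was called at an adjusted p under 0.05 and at least 2-fold. Each standard error is the log2 fold change divided by the root of its F value. The methods were tested on simulated counts. Alternatives were DESeq2 1.42.0, median-ratio size factors, library totals, no filter, a mean of at least 10 counts, no fold threshold, a block by replicate number, leaving out each library, and limma 3.58.1 on log2(FPKM + 1) with a mean FPKM of at least 1. Replicate numbers come from the sample titles.

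Members, gene lists and marker lists were chosen with earlier results of these data known. Named are the 5 most abundant members of each cluster and gamma type, members called in any fit and members with groups that do not overlap. Also named are those high in 1 library, the 5 largest fold changes, and Pcdhga12, for which the study lists qPCR primers. The study's text does not name Pcdhga12 among the genes whose induction it observed by RT-qPCR. For some of these, among them Pcdhgb1, Pcdhgb5, Pcdhgb6 and Pcdhga11, only limits or ranges are given. No sequence is printed.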

Additional observations from a re-analysis of the deposited data

How the results depend on the processing

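With all libraries the number of members called higher was 0 of 21 tested, and DESeq2 made it 1 of 47 (Pcdhgc4). Leaving out each library in turn gave 0 to 1 members higher and 0 to 1 lower, the calls being Pcdhb21, which passed the filter only through the libraries in which it was counted, and Pcdhb22, both without NR4A1 replicate 2. Without that library, DESeq2 and no count filter each called 2 of 44 members tested higher (Pcdhb21 and Pcdhgc4), and the replicate block called 0 lower. DESeq2 and no count filter then called 0.316% and 0.263% of all genes tested. Over all genes, the 22 called higher became 63 with DESeq2, 8 with a mean of at least 10 counts, 5 with the replicate block, 7 with limma on FPKM and 3 to 25 with a library left out. The 0 called lower became 2 with DESeq2, 1 without a fold threshold and 0 to 3 with a library left out. The causes were not tested.

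The deviations of same-numbered libraries correlated at -0.01, -0.05 and 0.25, and those of differently numbered libraries at -0.40 to 0.29. With 3 libraries per group, these values cannot decide whether the numbers pair the libraries. With the replicate block 0 members were called in either direction. Of all genes tested, 9.31% then had an unadjusted p under 0.05 in edgeR's quasi-likelihood test, beside 6.46% without the block. The log2 ratio of the beta sum was -1.32 from its highest member alone, 0.098 from summed FPKM, which turns its sign, and -0.17 to 0.05 with a library left out. That of the gamma sum was then 0.19 to 1.07.

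The sign of an uncalled log2 fold change depended on a single library for Pcdhgc3 (-0.16 to 2.21), Pcdhgb2 (-0.40 to 0.030), Pcdhga5 (-0.50 to 0.13), Pcdhgc5 (-0.22 to 0.090), Pcdhb20 (-0.38 to 0.025), Pcdhb17 (-0.95 to 0.23), Pcdhb16 (-0.052 to 0.48), Pcdhgb1 (-0.31 to 0.36), Pcdhgb5 (-0.64 to 0.13), Pcdhga4 (-0.37 to 0.26) and Pcdhga10 (-0.43 to 1.29). No other setting turned the sign of these fold changes. Without turning sign, that of Pcdhb19 ran from 1.07 to 8.28, Pcdhga1 from -3.26 to -0.081, Pcdhga3 from -1.69 to -0.19, Pcdhga11 from 0.11 to 0.90, Pcdhga6 from 1.02 to 2.07 and Pcdhb18 from 0.22 to 0.53 with a library left out. Depth leaves the alpha genes and 14 of the beta genes at or near 3 counts, where no difference was detectable, and ratios of the alpha sum were not computed.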

Other observations

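Several distal beta genes were absent from some libraries and well counted in others. Of 18 members with at least 30 counts in a library, 3 (16.7%), Pcdhb17, Pcdhb19 and Pcdhb21, had 0 counts in another library, beside 347 of 12538 genes (2.77%). The library at 0 was NR4A1 replicate 1 for Pcdhb17 and vector replicates 2 and 3 for Pcdhb19. The highest counts of Pcdhb17, Pcdhb19 and Pcdhb21 in a library were 45, 48 and 89. The genes beside them were not matched for level, so the shares are not like for like. This count was made after the values had been seen and was not tested.

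Pcdhb17 and Pcdhb18, 10 bases apart, summed to 58, 93 and 102 counts in the NR4A1 replicates and 94, 69 and 80 in the vector replicates, so that NR4A1 replicate 1 was the lowest for the sum as it was for Pcdhb17. Of the gene lists outside the clusters, Arap3, a flanking gene of chromosome 18, had 57 counts in NR4A1 replicate 2 and at most 3 in any other library, and Pcdh11x had 20 there and 0 in the others.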
